A study of Homo sapiens with 12 samples.

Results

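The 10 genes described here encode SR proteins other than SRSF2, namely SRSF1, SRSF3, SRSF4, SRSF5, SRSF6, SRSF7, SRSF9, SRSF10, SRSF11 and TRA2B. They were taken by name from a table of counts for 16599 genes, and all 10 passed the filter on low counts that left 15991 genes to test. The study sequenced polyadenylated RNA of the human lung cancer cell lines A549 and H1650. Each line was sampled as cells over-expressing SRSF2 and as cells labelled untreated, with 3 libraries in each of the 4 groups. The titles of the untreated libraries carry the letters NC, which the labels do not explain, so whether these cells received a control construct is not known. The construct, its promoter, the length of over-expression and whether the cells were clones or pools are not given in the sources used here, nor is it said that replicates were separate cultures. The p-values below therefore speak only of variation among libraries, which could be technical. The RNA level of SRSF2 was not analysed here.

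SR proteins bind exonic sequences through RNA-recognition motifs and contact the splicing machinery through a tail rich in arginine and serine, and kinases of the SRPK and CLK families phosphorylate that tail. Many SR genes control their own level and that of their relatives through alternative exons, often called poison exons, whose inclusion adds an early stop codon and sends the transcript to nonsense-mediated decay. The deposited counts are summed over all transcripts of a gene, so they do not separate productive transcripts from those with a poison exon. Because whole cultures were lysed, fewer cells expressing a gene and less of its RNA per cell cannot be told apart.

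Total counts ran from 23876899 to 32079027 per library, and the members had 2514 counts or more in every library. The keratins KRT8 and KRT18, markers of epithelium, were abundant in both lines (4615 and 1640 CPM, that is counts scaled to a fixed library total, in A549 SRSF2 cells, 4255 and 1223 CPM in H1650 SRSF2 cells). The surface marker EPCAM was at 3.82 CPM in SRSF2 and 5.89 CPM in untreated A549 cells, against 339.9 and 307 CPM in the same groups of H1650. CDH1 was likewise at 26.9 CPM in SRSF2 and 39.3 CPM in untreated A549 cells, against 1164 and 1310 CPM in the same groups of H1650. In H1650, KRT19 was at 591 CPM in SRSF2 and 1305 CPM in untreated cells, and CLDN4 at 989.6 and 597 CPM. All 6 epithelial markers tested were called with SRSF2, 2 higher and 4 lower in A549 and 4 higher and 2 lower in H1650. Over all genes tested, 32.3% were called in A549 and 62.3% in H1650. The 6 epithelial markers summed to 6401 to 6427 CPM in SRSF2 and 6995 to 7508 CPM in untreated A549 libraries. In H1650 they summed to 8278 to 8847 CPM in SRSF2 and 8780 to 8969 CPM in untreated libraries. Of the lung markers listed, SFTPB alone had a row, at 0.308 CPM or less in each group mean. The fibroblast markers with a row, 2 of 6, summed to 8.63 to 10.3 CPM in SRSF2 and 12.3 to 14.99 CPM in untreated A549 libraries, and to 19.1 to 20.6 CPM in SRSF2 and 21.4 to 22.7 CPM in untreated H1650 libraries. In H1650 they moved in opposite directions, with COL1A1 at 6.29 CPM in SRSF2 and 9.99 CPM in untreated cells and COL3A1 at 13.5 and 11.95 CPM. The part of these markers in the results was not tested. The leukocyte and endothelial markers listed were not analysed here. The libraries of SRSF2 H1650 cells varied most (biological coefficient of variation 0.0560, against 0.0298 to 0.0343 in the other groups). The main fit nevertheless shares its estimate of the spread over all 4 groups. Fitted alone, A549 had 5829 of 15433 genes called with SRSF2 and H1650 9479 of 14506, against 5162 and 9957 of 15991 in the main fit. Among the members, 1 was then higher and 3 lower in A549, and 4 higher and 4 lower in H1650. On the first principal component within H1650, SRSF2 replicate 3 lay at 34.6 and SRSF2 replicates 1 and 2 at 45.9 and 43.1, against -40.8 to -41.4 in untreated libraries. Results in H1650 are therefore also given without that library where they differ.

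In H1650, SRSF2 over-expression moved SR protein genes in both directions. TRA2B, SRSF3, SRSF10 and SRSF11 rose, and SRSF1, SRSF6, SRSF4 and SRSF9 fell, while SRSF5 and SRSF7 did not pass the test. The changes were modest, from a 1.21-fold rise of TRA2B to a fall of SRSF1 to 0.751 of its untreated level. Thus 4 of 10 members were called higher and 4 lower at an edgeR adjusted p under 0.05, in a comparison where 31.0% of all tested genes were called higher and 31.3% lower (62.3% in all). In size the members' changes had a median of 0.22 on the log2 scale, against 0.36 over all genes tested, and the shares of members called are near the background. In 4 members the SRSF2 libraries lay above all untreated ones and in 3 below them, against 32.1% and 32.6% (64.7% in all) of all genes. CPM values are scaled by TMM factors except for the cell type markers and the genes overlapping a member, each ± is the SD of 3 libraries, and fold changes are SRSF2 over untreated cells with the standard error (SE).

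SRSF1 and SRSF9 are close relatives, each with a pair of RNA-recognition motifs and a short arginine-serine tail, and SRSF1 is the founding splicing factor of the family. SRSF1 gave 126, 122 and 117 CPM in the SRSF2 libraries of H1650, against 163, 156 and 167 CPM in untreated ones. Every SRSF2 library lay below every untreated library, and the mean was 122 ± 4.80 CPM in SRSF2 and 162 ± 5.70 CPM in untreated cells (n = 3 each, log2 -0.41, SE 0.04, edgeR adjusted p = 4.88e-11). This was the largest change among the members in either line. SRSF9 fell less, with 188, 216 and 203 CPM in SRSF2 libraries against 207, 224 and 244 CPM in untreated ones, and the groups overlapped (log2 -0.15, SE 0.05, edgeR adjusted p = 0.0061). Without H1650 untreated replicate 3 its call was lost, at log2 -0.09 (edgeR adjusted p = 0.104).

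SRSF4, SRSF5 and SRSF6 form another subgroup with a pair of RNA-recognition motifs and, in SRSF4 and SRSF6, long arginine-serine tails. SRSF6 gave 294, 296 and 314 CPM in SRSF2 libraries of H1650, against 379, 378 and 363 CPM in untreated ones. The groups stood apart, and SRSF6 fell by 0.31 on the log2 scale (SE 0.04, edgeR adjusted p = 5.78e-09). SRSF4 gave 105, 110.2 and 105 CPM in SRSF2 against 122, 124 and 131 CPM in untreated libraries. It fell by 0.24 (SE 0.04, edgeR adjusted p = 5.31e-06), again with no overlap. SRSF5 was at 223 ± 5.90 CPM in SRSF2 and 223 ± 11.2 CPM in untreated cells, so only 2 of the 3 members of this subgroup were called. The approximate 95% interval of its log2 fold change ran from -0.08 to 0.09.

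SRSF3 and SRSF7 each carry a single RNA-recognition motif, and both have been linked to 3′ end processing and export of mRNA as well as to splicing. SRSF3 gave 405, 413 and 389 CPM in the SRSF2 libraries of H1650, against 346, 343 and 327 CPM in untreated ones. All SRSF2 libraries were above all untreated libraries (log2 0.25, SE 0.04, edgeR adjusted p = 6.58e-07). SRSF7 was at 159 ± 7.14 CPM in SRSF2 and 154 ± 2.65 CPM in untreated cells and was not called (log2 0.05, SE 0.04, edgeR adjusted p = 0.298).

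TRA2B, a sequence-specific activator of exons, and SRSF10, a relative known as a repressor of splicing when dephosphorylated, rose with SRSF3. TRA2B gave 251, 237 and 212 CPM in SRSF2 libraries of H1650, against 193, 193 and 191 CPM in untreated ones. The untreated libraries were nearly alike and the SRSF2 libraries spread widely, with replicate 3 the lowest (log2 0.28, SE 0.04, edgeR adjusted p = 9.92e-07). Without that library the log2 fold change was 0.34 (edgeR adjusted p = 1.16e-09), and the other 7 calls in H1650 held too. SRSF10 gave 181, 171 and 161 CPM in SRSF2 against 148, 152 and 146 CPM in untreated libraries, with replicate 3 once more the lowest of the SRSF2 libraries (log2 0.20, SE 0.04, edgeR adjusted p = 0.000107). SRSF11, an SR-related nuclear protein, was at 261 ± 6.64 CPM in SRSF2 and 234 ± 11.5 CPM in untreated cells (log2 0.16, SE 0.04, edgeR adjusted p = 0.000809). With plain library totals in place of TMM factors, every rise called in H1650 shrank and every fall grew. The rises became log2 0.20 for TRA2B, 0.17 for SRSF3, 0.12 for SRSF10 and 0.08 for SRSF11 (edgeR adjusted p = 0.0121 and 0.0908 for the last pair). The falls became -0.49 for SRSF1, -0.39 for SRSF6, -0.32 for SRSF4 and -0.23 for SRSF9.

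**Figure D1:**
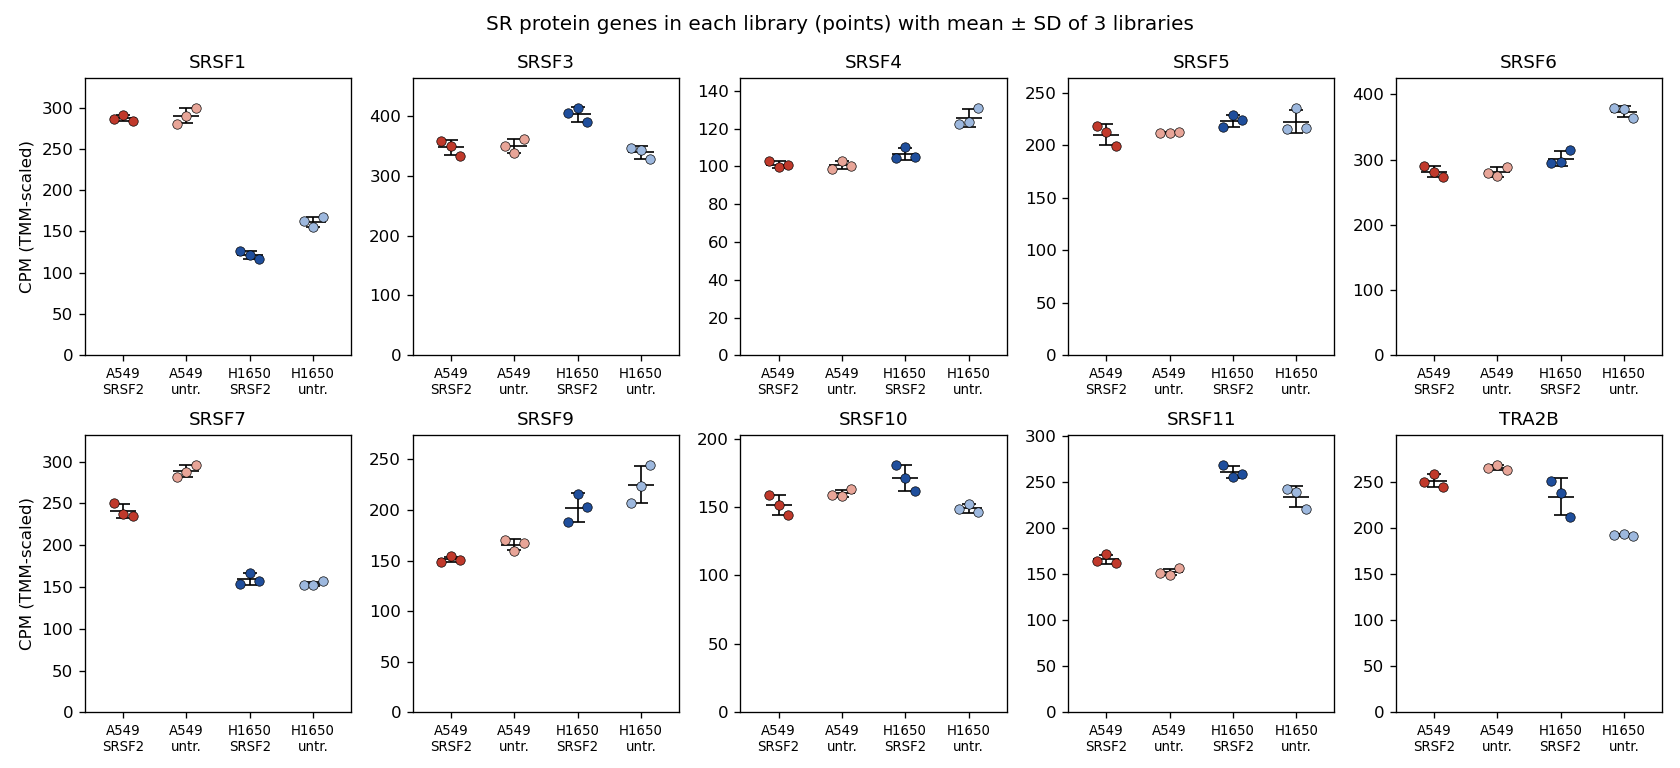
CPM of each SR protein gene in every library (points) with the mean and SD of 3 libraries (bars), in SRSF2 and untreated cells of A549 and of H1650; every vertical axis starts at 0. SRSF1 in H1650 lay at 117 to 126 CPM in SRSF2 libraries, below 156 to 167 CPM in untreated ones, while in A549 the points of the 2 groups overlap.

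Within the sum of the 10 members, which leaves out SRSF2 itself, the shares of some members differed between SRSF2 and untreated cells in both lines. In H1650 the 10 members summed to 2182 ± 38.4 CPM in SRSF2 and 2176 ± 17.8 CPM in untreated cells, and the ranges overlapped. This similarity rests on the TMM scaling, since by plain library totals the sum was 0.2045% to 0.21% of counts in SRSF2 and 0.2154% to 0.2211% in untreated libraries. Within that sum, a measure that does not depend on the scaling between libraries, SRSF1 made up 5.57% ± 0.173 in SRSF2 and 7.43% ± 0.32 in untreated H1650 cells. SRSF6 made up 13.8% ± 0.747 and 17.2% ± 0.352 in the same order of groups. Larger shares in SRSF2 cells were those of SRSF3 (18.4% ± 0.236, against 15.6% ± 0.43 in untreated cells) and of TRA2B (10.7% ± 0.793, against 8.83% ± 0.0466). In A549 the sum was 2187 ± 53.9 CPM in SRSF2 and 2264 ± 36.6 CPM in untreated cells, with the SRSF2 libraries (2126 to 2228 CPM) below the untreated ones (2239 to 2306 CPM). Within the A549 sum, SRSF7 made up 11.01% ± 0.233 in SRSF2 and 12.7% ± 0.175 in untreated cells, and SRSF11 7.58% ± 0.192 and 6.71% ± 0.0563. No test was made on these sums and shares.

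The sequences just upstream of the start sites of the members that moved furthest in H1650 are shown next, with matches to 5 short motifs marked. They are the 250 bases before the RefSeq start (GRCh38.p14), printed 5′ to 3′ on the strand of the gene, for SRSF1 and SRSF6, which had the largest falls, and for TRA2B and SRSF3, which had the largest rises. Capitals mark any match on either strand to TATAAA, the motif of the TATA box, to CCAAT, which the factor NF-Y binds, to TGACGT, the core of cyclic AMP response elements, to CCGGAA, the core bound by factors of the ETS family, or to GGGCGG, which Sp factors bind.
SRSF1, chr17:58007247-58007496, minus strand: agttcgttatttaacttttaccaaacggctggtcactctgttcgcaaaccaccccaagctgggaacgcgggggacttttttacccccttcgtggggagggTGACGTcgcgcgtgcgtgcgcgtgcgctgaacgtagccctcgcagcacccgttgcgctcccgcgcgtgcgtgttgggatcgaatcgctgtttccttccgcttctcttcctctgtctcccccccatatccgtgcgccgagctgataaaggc
SRSF6, chr20:43457646-43457895, plus strand: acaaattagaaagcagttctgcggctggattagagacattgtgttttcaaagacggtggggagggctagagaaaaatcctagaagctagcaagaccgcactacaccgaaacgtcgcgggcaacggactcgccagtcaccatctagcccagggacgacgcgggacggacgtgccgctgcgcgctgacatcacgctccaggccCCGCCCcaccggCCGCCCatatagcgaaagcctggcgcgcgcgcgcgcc
TRA2B, chr3:185938015-185938264, minus strand: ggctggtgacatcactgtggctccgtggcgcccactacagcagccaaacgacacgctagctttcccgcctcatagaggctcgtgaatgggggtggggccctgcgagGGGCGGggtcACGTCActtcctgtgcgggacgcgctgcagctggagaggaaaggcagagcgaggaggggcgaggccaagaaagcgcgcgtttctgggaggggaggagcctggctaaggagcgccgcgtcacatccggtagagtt
SRSF3, chr6:36594112-36594361, plus strand: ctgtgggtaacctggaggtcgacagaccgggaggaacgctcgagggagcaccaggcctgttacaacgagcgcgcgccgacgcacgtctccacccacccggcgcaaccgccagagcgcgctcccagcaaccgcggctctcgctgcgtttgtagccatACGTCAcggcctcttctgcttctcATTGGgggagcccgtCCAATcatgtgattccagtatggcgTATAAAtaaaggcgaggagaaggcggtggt

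SRSF3 holds TATAAA, 30 bases before its start, and a pair of matches to CCAAT upstream of it. The motif TGACGT is present in SRSF1, TRA2B, SRSF3 and SRSF5, that is in genes that fell, rose or were not called in H1650. It was found for 4 of 10 members, against 7.1% of 35116 promoters of the same length. TATAAA was found for 3 of 10 members, against 10.7% of promoters, and CCAAT for 1 of 10, against 11240 of the 35116 promoters. CCGGAA was found for 2 of 10 members, against 14.5% of promoters, and GGGCGG for 4 of 10, against 42.6%. None of the motifs contains another. SRSF7 and SRSF11 have a pair of annotated starts each and were counted if either held the motif, whereas the percentages are of single promoters. Of the 12 promoters of the members, 4 held TGACGT, 3 TATAAA, 1 CCAAT, 2 CCGGAA and 5 GGGCGG. The TATAAA match of SRSF11 lay 206 bases before one of its starts, against 27 for SRSF7 and 30 for SRSF3. A match is only a run of letters, and SRSF9 and SRSF10 held none of the 5 motifs in this window. The part of these motifs in the changes was not tested.

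A549 cells showed less change in the same genes. SRSF7 fell, SRSF9 fell slightly and SRSF11 rose slightly, and the other 7 members did not pass the test. The count was 1 of 10 higher and 2 of 10 lower, where 16.4% of all tested genes were called higher and 15.9% lower (32.3% in all). In size the members' changes had a median of 0.05 on the log2 scale, against 0.16 over all genes tested.

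SRSF7 gave 249.96, 237 and 235 CPM in SRSF2 libraries of A549, against 282, 288 and 296 CPM in untreated ones. The groups did not overlap, and SRSF7 fell to 0.835 of its untreated level (log2 -0.26, SE 0.04, edgeR adjusted p = 1.74e-06). SRSF9 was at 151 ± 2.76 CPM in SRSF2 and 166 ± 5.78 CPM in untreated A549 cells (log2 -0.13, SE 0.05, edgeR adjusted p = 0.0376), and SRSF11 at 166 ± 5.14 and 152 ± 3.61 CPM (log2 0.13, SE 0.04, edgeR adjusted p = 0.0159). Both calls were fragile. The SRSF9 call was lost without untreated replicate 1 or 3 or without any one of the 3 SRSF2 libraries (edgeR adjusted p = 0.0565 to 0.141), and that of SRSF11 without untreated replicate 1 or 2 or SRSF2 replicate 2 (edgeR adjusted p = 0.053 to 0.115).

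For the members that changed most in H1650, the A549 estimates lay near 0 with narrow intervals. SRSF1 was at 287 ± 3.42 CPM in SRSF2 and 290.1 ± 9.37 CPM in untreated A549 cells, with an approximate 95% interval of the log2 fold change from -0.09 to 0.06. For SRSF6 it ran from -0.07 to 0.08, for SRSF3 from -0.08 to 0.07 and for SRSF4 from -0.08 to 0.09. TRA2B was at 251 ± 7.27 CPM in SRSF2 and 265 ± 2.90 CPM in untreated A549 cells. All 3 SRSF2 libraries of TRA2B were below the untreated ones, yet it was not called (log2 -0.08, SE 0.04, edgeR adjusted p = 0.169), and a fit of the A549 libraries alone gave an adjusted p of 0.0463. Groups that do not overlap were common in this line, with 22.7% of all tested genes higher and 23.0% lower in that way (45.6% in all), against 1 and 3 of the 10 members.

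**Figure D2:**
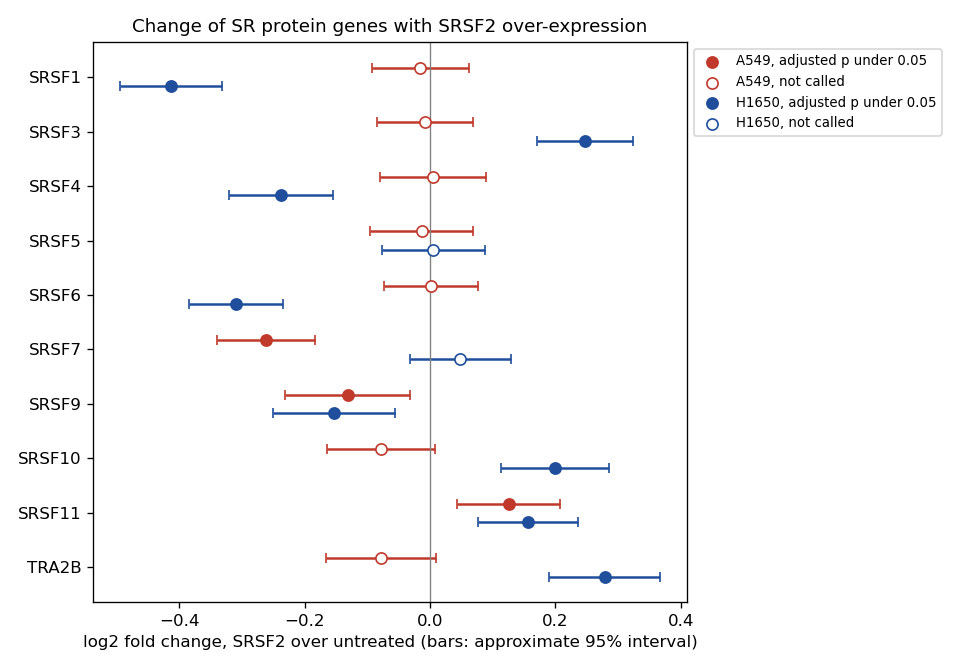
Log2 fold change of each SR protein gene, SRSF2 over untreated cells, in A549 (upper symbol of each pair) and H1650 (lower symbol), with approximate 95% intervals; filled symbols have an edgeR adjusted p under 0.05. SRSF1 lies at -0.41 in H1650 and at -0.02 in A549, and SRSF7 at -0.26 in A549 and 0.05 in H1650.

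**Figure D3:**
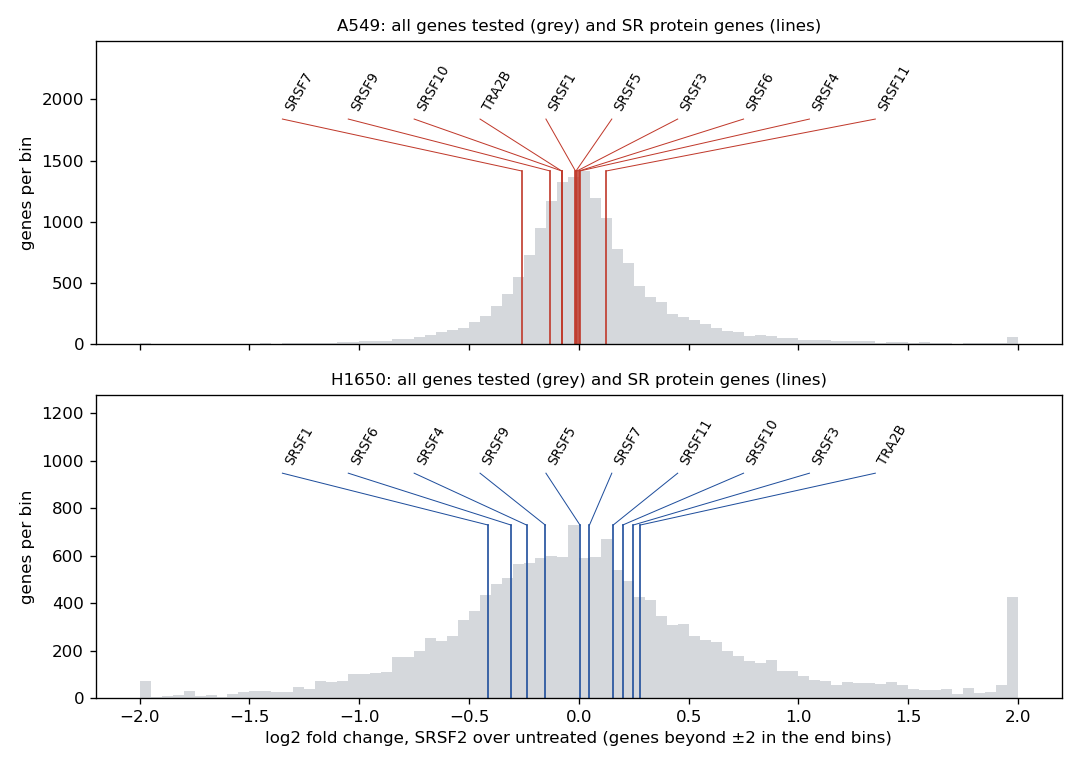
Log2 fold changes of the 15991 genes tested (grey, genes per bin of 0.05) with the 10 SR protein genes as lines, for A549 (top) and H1650 (bottom). All members lie inside the bulk of the genes: the median absolute log2 fold change of all genes is 0.16 in A549 and 0.36 in H1650, and the furthest member is at -0.26 in A549 and -0.41 in H1650.

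The responses of 7 of 10 members differed between the lines when the difference itself was tested, in a comparison where 47.5% of all genes did. It was called positive for 3 and negative for 4 members, against 24.0% and 23.5% of all genes. The difference is the log2 fold change in A549 minus that in H1650. It was positive for SRSF1 (0.40, SE 0.06, edgeR adjusted p = 2.61e-07), SRSF6 (0.31, SE 0.05, edgeR adjusted p = 7.28e-06) and SRSF4 (0.24, SE 0.06, edgeR adjusted p = 0.000756), which fell in H1650. It was negative for TRA2B (-0.36, SE 0.06, edgeR adjusted p = 8.9e-06), SRSF10 (-0.28, SE 0.06, edgeR adjusted p = 0.000213) and SRSF3 (-0.26, SE 0.05, edgeR adjusted p = 0.000145), which rose in H1650, and for SRSF7 (-0.31, SE 0.06, edgeR adjusted p = 1.7e-05), which fell in A549. SRSF9 and SRSF11 had changes of the same sign in both lines, and their differences of 0.02 (SE 0.07) and -0.03 (SE 0.06) were not called. SRSF5 was called in neither line nor for the difference. The unit of all these values is a log2 difference, and each of the 7 calls held without any one of the 12 libraries.

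The untreated lines differed in most SR protein genes, with a median absolute log2 difference of 0.43 for the members and 0.76 for all genes tested. In untreated H1650 against untreated A549 cells, SRSF11, SRSF9, SRSF6 and SRSF4 were higher and SRSF7, SRSF1, TRA2B and SRSF10 lower. These 4 higher and 4 lower members compare with 40.1% higher and 42.3% lower, or 82.4% in all, of the genes tested. The lines did not overlap for 5 higher and 4 lower members, against 40.9% and 43.1% (84.0% in all). SRSF7 was at 154 ± 2.65 CPM in untreated H1650 and 288 ± 7.12 CPM in untreated A549 cells (log2 -0.91, SE 0.04, edgeR adjusted p = 3.49e-21). SRSF1 was at 162 ± 5.70 CPM in H1650 and 290.1 ± 9.37 CPM in A549 (log2 -0.84, SE 0.04, edgeR adjusted p = 2.47e-20). SRSF11 was at 234 ± 11.5 CPM in H1650 and 152 ± 3.61 CPM in A549 (log2 0.62, SE 0.04, edgeR adjusted p = 3.6e-16). The call for SRSF10 (log2 -0.10, edgeR adjusted p = 0.0247) was lost without any one of 5 libraries, untreated A549 replicates 1, 2 and 3 and untreated H1650 replicates 1 and 3 (edgeR adjusted p up to 0.111). It was also lost with no filter on low counts (log2 -0.07, edgeR adjusted p = 0.148). In that setting SRSF5 was called higher (log2 0.11, edgeR adjusted p = 0.0152).

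With SRSF2 over-expressed, SRSF1 stood further apart between the lines, and SRSF7, SRSF6, SRSF4 and TRA2B came closer. The estimates of SRSF10 and SRSF3 changed sides, but in untreated cells the SRSF10 call was fragile and SRSF3 was not called. SRSF1 was at 122 ± 4.80 CPM in SRSF2 H1650 cells and 287 ± 3.42 CPM in SRSF2 A549 cells, a log2 difference of -1.24 (SE 0.04, edgeR adjusted p = 5.2e-25). Smaller gaps than in untreated cells were seen for SRSF7 (-0.60), SRSF6 (0.10) and SRSF4 (0.08), and for TRA2B the gap was -0.11 against -0.46 in untreated cells. SRSF3 was at 0.21 in SRSF2 cells (edgeR adjusted p = 4.47e-06) against -0.04 in untreated cells (not called, edgeR adjusted p = 0.289), and SRSF10 at 0.17 (edgeR adjusted p = 0.00033) against -0.10. These comparisons share libraries with those within each line and add no independent evidence. In all, 6 of 10 members were called higher and 3 lower, against 40.5% and 43.7% (84.2% together) of all genes, and did not overlap for 6 higher and 2 lower members, against 40.5% and 43.5% (84.0% together). SRSF6 was no longer called without SRSF2 replicate 3 of A549 or of H1650 (edgeR adjusted p = 0.0635 and 0.0809), and TRA2B without SRSF2 A549 replicate 2 or SRSF2 H1650 replicate 3 (edgeR adjusted p = 0.134 and 0.395). SRSF5, called by a narrow margin (log2 0.09, edgeR adjusted p = 0.0451), was lost without any one of SRSF2 A549 replicates 2 and 3 and SRSF2 H1650 replicates 2 and 3. Its call was also lost with DESeq2 (DESeq2 adjusted p = 0.0674), with RLE factors and with a filter of 1 CPM in 3 libraries (edgeR adjusted p = 0.0804 and 0.112). Library totals in place of TMM factors moved the median of all genes from -0.06 to -0.17 in this comparison and gave log2 differences of -0.02 for SRSF6, -0.03 for SRSF5, 0.06 for SRSF10, 0.10 for SRSF3 and -0.22 for TRA2B, against 0.10, 0.09, 0.17, 0.21 and -0.11 with TMM factors. SRSF5, SRSF6 and SRSF10 (edgeR adjusted p = 0.184) then lost their calls, so 3 members rather than 6 were higher, as with both FPKM fits. With the same totals SRSF3 was called lower in untreated H1650 cells (log2 -0.08, edgeR adjusted p = 0.037), against -0.04 with TMM factors. That gap was about as large as its 0.10 in SRSF2 cells, with the opposite sign.

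**Figure D4:**
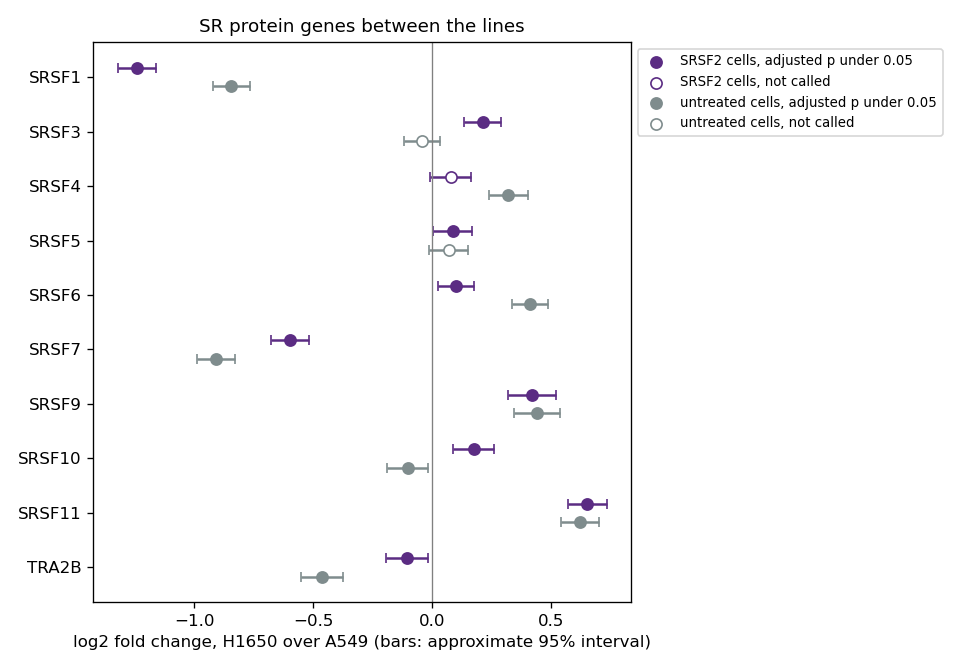
Log2 fold change of each SR protein gene, H1650 over A549, in SRSF2 cells (upper symbol of each pair) and untreated cells (lower symbol), with approximate 95% intervals; filled symbols have an edgeR adjusted p under 0.05. SRSF1 lies at -1.24 in SRSF2 and -0.84 in untreated cells, whereas SRSF6 lies at 0.10 in SRSF2 and 0.41 in untreated cells.

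The order of the 4 groups differed from gene to gene. For SRSF1 and SRSF7 both A549 groups were above both H1650 groups. With TMM factors, both H1650 groups were above both A549 groups for SRSF4, SRSF6, SRSF9 and SRSF11, without overlap of the lines. Library totals gave log2 differences between SRSF2 cells (H1650 over A549) of -0.04 for SRSF4 and -0.02 for SRSF6. The order of SRSF4 and SRSF6 therefore rests on the TMM scaling. SRSF11 was the only member whose 4 groups all stood apart by TMM-scaled CPM, in the order H1650 SRSF2, H1650 untreated, A549 SRSF2 and A549 untreated. In deposited FPKM its H1650 groups overlapped, with SRSF2 replicate 2 at 5.105 and untreated replicate 1 at 5.115. In SRSF3, H1650 SRSF2 cells stood above the other 3 groups, whose neighbours in order overlapped (327 to 361 CPM). In SRSF10 all neighbours in the order overlapped. For TRA2B, SRSF2 H1650 libraries (212 to 251 CPM) reached the range of SRSF2 A549 libraries (244 to 259 CPM), while untreated H1650 libraries stayed at 191 to 193 CPM. The patterns most alike among members, by the Euclidean distance of mean log2 CPM over the 4 groups after centring, were those of SRSF4 and SRSF6 (0.0761) and of SRSF3 and SRSF10 (0.0781), and the least alike were those of SRSF1 and SRSF11 (1.73).

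Among all other genes with a symbol, those nearest in pattern by the same distance over 4 groups and 12 libraries were COPS8 for SRSF3 (0.00962), CHMP6 for SRSF5 (0.0145) and TMEM9B for SRSF10 (0.018). For SRSF6 it was ATP9A (0.0231), for TRA2B SLC25A44 (0.0246) and for SRSF4 GORASP1 (0.0247). SRSF1 and SRSF7 had more distant neighbours, RHBDF2 (0.0456) and ATAD5 (0.0647).

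Levels can be compared between genes only per length. In CPM per kilobase of merged exons (GENCODE 29), SRSF1 was the highest member in untreated A549 cells at 86.9 ± 2.81, above 97.8% of tested genes, and SRSF4 the lowest at 11.3 ± 0.250. In untreated H1650 cells SRSF6 was the highest at 81.3 ± 1.94, and SRSF1 was at 48.4 ± 1.71. SRSF2 H1650 cells had SRSF6 at 65.7 ± 2.43, SRSF3 at 56.5 ± 1.71 and SRSF1 at 36.4 ± 1.44. This order depends on the length used. Merged exons include retained introns and rare ends, and per kilobase of the longest coding transcript SRSF9 was the highest member in untreated cells of both lines (187 in H1650 and 138 in A549).

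All members are annotated with transcripts of the unproductive kind. In GENCODE 29 all 10 have at least 1 transcript annotated as a target of nonsense-mediated decay, against 42.0% of 13064 coding genes in the table. SRSF7 has 6 such transcripts and SRSF1 has 3. Transcripts with a retained intron are annotated for 8 of 10 members, against 56.7% of these coding genes. This describes the annotation and not these libraries, in which such transcripts were not counted apart.

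By GENCODE 29 (GRCh38) the genes lie apart from each other. SRSF1 is on chromosome 17 (58003360 to 58007346), SRSF9 on chromosome 12 (120461668 to 120469793), SRSF6 on chromosome 20 (43457928 to 43464247) and SRSF5 on chromosome 14 (69726900 to 69772005). SRSF3 is on chromosome 6 (36594353 to 36605600), SRSF7 on chromosome 2 (38743599 to 38751494) and TRA2B on chromosome 3 (185915906 to 185938136). Chromosome 1 holds SRSF4 (29147743 to 29181987), SRSF10 (23964804 to 23980927) and SRSF11 (70205682 to 70253052). Some members overlap other genes, and the sources used here do not say whether reads were counted by strand. SRSF1 shares 1890 exonic bases on its own strand with AC015813.2. That gene was at 17.8 ± 1.62 CPM in SRSF2 and 24.7 ± 3.36 CPM in untreated H1650 cells (log2 -0.39, SE 0.08, edgeR adjusted p = 3.15e-05), and in A549 its log2 fold change was -0.23 (SE 0.06, edgeR adjusted p = 0.00422), where SRSF1 was not called. SRSF9 shares 1729 exonic bases with GATC on the other strand, and GATC rose in H1650 (log2 0.37, SE 0.06, edgeR adjusted p = 6.23e-06). The part of these overlaps in the values of SRSF1 and SRSF9 was not tested. No row of the table was a named pseudogene of a member.

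Kinases of SR proteins moved in both directions. Of 10 kinase genes tested, 5 were called higher and 2 lower in H1650, and 4 higher and 1 lower in A549, with a median log2 fold change of 0.18 in H1650 and 0.06 in A549 against 0.00 for all genes in either line. CLK1, a nuclear kinase of SR proteins, rose to 117 ± 7.85 CPM in SRSF2 H1650 cells, against 48.2 ± 2.68 CPM in untreated ones (2.42-fold, log2 1.27, SE 0.05, edgeR adjusted p = 3.97e-21). In A549 it was at 59.1 ± 1.00 CPM in SRSF2 and 37.4 ± 1.61 CPM in untreated cells (1.58-fold). SRPK2, a mostly cytoplasmic kinase of the tail, was at 153 ± 6.002 CPM in SRSF2 and 84.6 ± 1.69 CPM in untreated H1650 cells (log2 0.85, edgeR adjusted p = 1.09e-18). Among H1650 values both changes were larger in size than that of any SR protein gene. CLK1 and SRPK2 were, however, picked as the best supported kinases in H1650, so they do not stand for the kinase list.

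SR-related proteins moved both ways. Of 30 tested, 9 were higher and 8 lower in H1650, and 7 higher and 2 lower in A549. RBM39, which works with U2AF at the 3′ splice site, was at 714 ± 53.8 CPM in SRSF2 and 399.8 ± 5.53 CPM in untreated H1650 cells (log2 0.84), and SNRNP70, the U1 protein that SR proteins contact, was lower in both lines (log2 -0.19 in H1650 and -0.20 in A549, edgeR adjusted p up to 4.71e-05). Among the 15 hnRNPs tested, which often oppose SR proteins, 6 were higher and 6 lower in H1650, with PTBP1 at 316 ± 18.1 CPM in SRSF2 and 466 ± 3.73 CPM in untreated cells (log2 -0.56). In A549 3 were higher and 2 lower, and PTBP1 was not called (log2 -0.09). Factors of nonsense-mediated decay were higher for 9 of 15 and lower for 3 of 15 in H1650, and higher for 5 and lower for 1 in A549. UPF3B, which links exon junctions to the decay machinery, rose 3.03-fold in H1650, to 38.97 ± 3.36 CPM in SRSF2 cells against 12.9 ± 0.732 CPM in untreated ones (log2 1.60, edgeR adjusted p = 1.58e-20), and was not called in A549 (log2 0.12, edgeR adjusted p = 0.126).

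Of 12 tested partners in mRNA export, 5 were higher and 2 lower in H1650 and 1 higher and 1 lower in A549. NXF1, the export receptor that SRSF3 and SRSF7 bind as adaptors, rose in H1650 to 135 ± 13.96 CPM in SRSF2 cells, against 71.9 ± 2.97 CPM in untreated ones (log2 0.91, edgeR adjusted p = 2.23e-16). Of 11 tested import receptors, phosphatases and other partners, 3 were higher and 6 lower in H1650 and 1 higher and 5 lower in A549, among them the chaperone HSPA8, lower in both lines (log2 -0.56 in H1650 and -0.30 in A549). These lists are read against the same backgrounds of 31.0% higher and 31.3% lower in H1650 and 16.4% and 15.9% in A549.

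**Figure D5:**
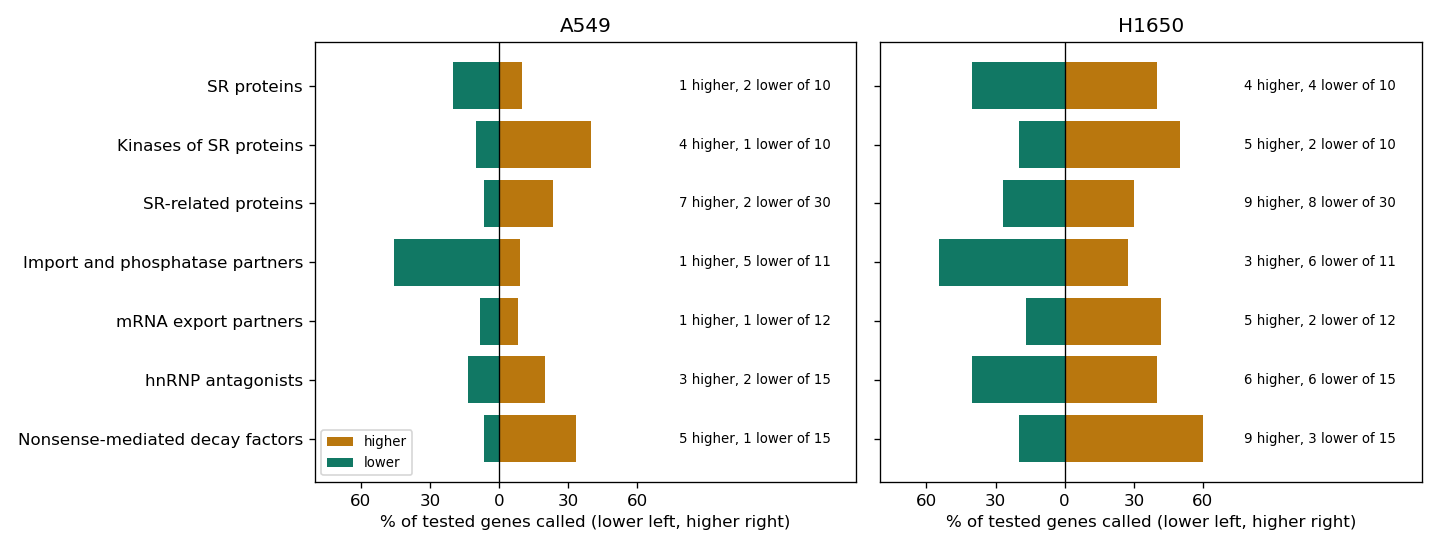
Share of tested genes called higher (right) and lower (left) with SRSF2 over-expression in each list, in percent, for A549 and H1650, at an edgeR adjusted p under 0.05; the counts stand beside the bars. SR protein genes had 4 higher and 4 lower of 10 in H1650 and 1 higher and 2 lower of 10 in A549.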

How the data were processed

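Polyadenylated RNA of 12 libraries was measured. The submitters' processing notes name fastp 0.20.1 for the reads, STAR 2.7.7a for alignment to GRCh38 and featureCounts 2.0.0, from which the authors deposited raw counts for each gene. The annotation release, strandedness and gene filter are not given in the sources used here. A table of FPKM deposited by the authors served only in alternatives, because the length behind it is the genomic span, or close to it, for the members. Libraries were grouped by the labels. Counts were fitted with edgeR 4.0.16 in R 4.3.3 (filterByExpr, TMM, quasi-likelihood test, 12 libraries, 1 mean per group, 8 residual degrees of freedom), with Benjamini-Hochberg adjustment over the 15991 genes tested. Each SE was taken as the size of the log2 value divided by the root of its F statistic, and gave the intervals. Symbols came from a gene name table or GENCODE 29 (15093 IDs). Replicates of a group always differed by more than sampling noise (chi-square over its degrees of freedom 2.28 to 8.12). Libraries that share a replicate number had residual correlations of -0.12 to 0.13, so numbers were not used as pairs. The members and the gene lists were chosen with earlier results of these data known. By rule, all members, the 2 best supported genes of each other list in each line and the nearest genes in pattern could be named, and not all are. The fits were tested on simulated counts. Alternatives used DESeq2 1.42.0, limma 3.58.1 (log2 of FPKM plus 1 or 0.1), other scalings and filters, a replicate block and leaving out libraries.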

Additional observations from a re-analysis of the deposited data

Results flagged for a closer look

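The response to SRSF2 differed between the lines for 7 of 10 members by a test of the difference itself (log2 fold change in A549 minus that in H1650, edgeR adjusted p from 2.61e-07 to 0.000756), where 47.5% of all genes tested did. The difference was 0.40 for SRSF1, 0.31 for SRSF6 and 0.24 for SRSF4. It was -0.36 for TRA2B, -0.31 for SRSF7, -0.28 for SRSF10 and -0.26 for SRSF3. No cause was tested.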

How the results depend on the processing

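Of the 8 members called in H1650, SRSF1, SRSF3, SRSF4, SRSF6, SRSF10 and TRA2B kept call and direction in all 21 alternative settings. Some of these settings left out only an A549 library, which bears on H1650 values only through the shared filter, scaling and spread. Values below are log2 fold changes. Library totals in place of TMM factors moved the median of all genes in H1650 from 0.00 to -0.08. SRSF11 was not called with totals (0.08) or with FPKM plus 1 (0.06) or plus 0.1 (0.08). On FPKM plus 1, 0 members were higher and 1 lower in A549, and 1 was lower with FPKM plus 0.1. Between SRSF2 cells of the lines, 3 members were higher with totals and with both FPKM fits, against 6 in the main fit. The count was 5 with DESeq2, RLE factors or 1 CPM in 3 libraries, and 7 with no filter.

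Signs turned for members near 0. Between SRSF2 cells of the lines they also turned for SRSF5 (0.0875) and SRSF6 (0.1001), which the main fit called. In A549 SRSF4 was -0.0151 with DESeq2, -0.0163 with RLE factors and -4e-04 with totals, and SRSF6 was -0.0186, -0.0198 and -0.0038 in the same settings, -0.0037 with FPKM plus 1 and -0.0038 with FPKM plus 0.1. In H1650 SRSF5 was -0.0015 with DESeq2, -0.0024 with RLE factors, -0.0753 with totals, -0.0035 with no filter, -0.0034 with 1 CPM in 3 libraries, and -0.062 and -0.0732 with FPKM plus 1 and 0.1. SRSF7 was -0.0319 with totals and -0.0315 and -0.033 with FPKM. The difference between lines turned for SRSF5 (0.0569 with totals, 0.0461 and 0.0542 with FPKM) and SRSF11 (0.0447, 0.0289 and 0.0411). Between SRSF2 cells of the lines, SRSF4 was -0.0381 with totals and -0.029 and -0.0375 with FPKM, SRSF5 -0.0281, -0.0229 and -0.0271, and SRSF6 -0.0153, -0.016 and -0.0163. The cause was not tested.

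Leaving out 1 library at a time, A549 had 0 to 1 members higher and 1 to 2 lower. Signs turned within -0.039 to 0.0076 for SRSF1, -0.0324 to 0.0202 for SRSF3, -0.0084 to 0.0228 for SRSF4, -0.0411 to 0.0246 for SRSF5 and -0.0201 to 0.0223 for SRSF6 in A549, and within -0.0199 to 0.0435 for SRSF5 in H1650. The difference between lines ran from -0.0566 to 0.0221 for SRSF5, -0.0387 to 0.0803 for SRSF9 and -0.0549 to 0.0123 for SRSF11. Where a group was left with 2 libraries, the spread was shared over all groups.

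With the replicate number as a block, no member call changed, and 5146 genes were called in A549 and 9919 in H1650 (5162 and 9957 without the block). The highest over the lowest member per kilobase was 7.68 in untreated A549 and 5.83 in untreated H1650 cells by merged exons, 24.8 and 18.0 by deposited FPKM, and 3.44 and 4.39 by the longest coding transcript, a length chosen after seeing the data. How much of the spread among libraries is counting error was not computed for single members.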
